A study of Mus musculus with 6 samples.

Results

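The comparison described here sets the Lingo3 knockout line of MLE12 against its parental line, each collected 24 hours after the cell layer was wounded. MLE12 is an immortalized mouse lung epithelial cell line. All rows of the deposited gene count table entered, except the 5 summary lines of the counting program, which left 46078 of 46078 gene identifiers and 2 of the 6 libraries of the series. The knockout library is labelled Lingo3 KO and the control wild-type, and both cultures were grown to a monolayer and scratched with a pipet tip. The other libraries are the parental line without a scratch and scratched knockouts of Lingo1, Lingo2 and TROY, which are used here for comparison with the Lingo3 library. Each group had 1 library, so differences between lines and between cultures of 1 line cannot be told apart, and no test across libraries could be run. The sources used here do not say by which method the gene was knocked out or whether the line is 1 clone.

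LINGO proteins are single-pass membrane proteins with leucine-rich repeats and an immunoglobulin domain outside the cell. The founding member, LINGO1, is known from neurons as a partner of the Nogo receptor in a complex that transmits myelin signals and limits axon growth, and TROY, a receptor of the tumour necrosis factor superfamily, can take part in that complex. In the scratch assay a gap is drawn through an epithelial layer, and the cells at its edges flatten, migrate and divide to close it. The series title places the LINGO family in epithelial wound healing, and the comparison asks which transcripts differ in the wounded layer of the Lingo3 line.

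The 6 libraries held between 28109825 and 30776294 counts in genes, and CPM stands for counts per 1000000 scaled counts. Lingo3 itself (ENSMUSG00000051067, chromosome 10, 80832801 to 80844039, GRCm38) had 0 counts in the parental and 0 in the knockout library, which allows up to 0.0986 and 0.0984 CPM at 3 counts, so RNA levels give no check of the knockout. Lingo2 likewise had 0 counts in both, and Tnfrsf19, which encodes TROY, had 1 and 4. Lingo1, the family member with a clear level, stood at 24.5 CPM in the scratched parental and 51.3 CPM in the Lingo3 library, 2.10-fold higher (95% counting interval 1.92 to 2.29). It stood at 27.6 CPM in the unscratched parental library, against which it fell short of the size rule given next, and at 57.0, 52.0 and 34.7 CPM in the libraries labelled Lingo1, Lingo2 and TROY. The library labelled a Lingo1 knockout thus held the highest Lingo1 level of the 6, so RNA levels show no loss of Lingo1 there. Protein was not measured and the method of the knockout is not known, so this cannot decide on the label. The other lines are called mutants here only as their labels have it. Lingo4 had 40 and 17 counts. Reads that fell in no annotated gene made up 8.02% of uniquely aligned reads in the scratched parental library (95% Clopper-Pearson interval 8.02% to 8.03%), 7.80% in the unscratched one and 4.98% (4.98% to 4.99%) in the Lingo3 library, the lowest of the 6.

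A gene was called higher or lower when its fold was at least 2 and the bound of its 95% counting interval nearest to 1 was beyond 1.5, the size rule. These intervals describe counting error alone, since the reads carry no molecular identifiers and no second culture was sequenced. Of 12078 genes tested, 559 were higher (4.63%) and 309 lower (2.56%) in the Lingo3 library, 868 in either direction (7.19%). The 2 parental libraries, which differ in the scratch, differed in 10 genes (0.0828%). The central 95% of the log2 ratios ran from -1.08 to 1.42 between Lingo3 knockout and parental line and from -0.37 to 0.37 between the parental libraries. Most of the differences were of modest size, with 321 higher and 169 lower genes between 2-fold and 3-fold. Changes of 10-fold or more were found in 29 higher and 6 lower genes, not counting the gene with 0 parental counts. Just outside the rule, 134 genes had folds of 1.8 to 2 upward and 87 downward, and just inside it 112 higher and 50 lower genes had folds of 2 to 2.2.

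The control library decided a part of these calls. Against the unscratched parental library 827 genes passed (6.85%). Of the 559 higher genes 440 (78.7%) passed against that library too, as did 253 of the 309 lower genes (81.9%). Of the genes named in what follows, Areg, Cxcl15, Epcam, Evpl, Heg1, Hk1, Id1, Kcnq1ot1, Kdm3a, Lgr6, Nrarp, Pi16, Sema3b, Tek, Tnfrsf21, Tnfsf9 and Vwf passed against the scratched but not the unscratched parental library. Against the other knockout lines fewer genes passed, 199 for Lingo1 (1.65%), 195 for Lingo2 (1.61%) and 315 for TROY (2.61%). In each of these 3 comparisons most genes were higher in the Lingo3 library, 158, 151 and 257. The Lingo3 library passed the rule in the same direction against all 5 other libraries for 117 genes (0.969%), 100 of them higher and 17 lower.

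**Figure D1:**
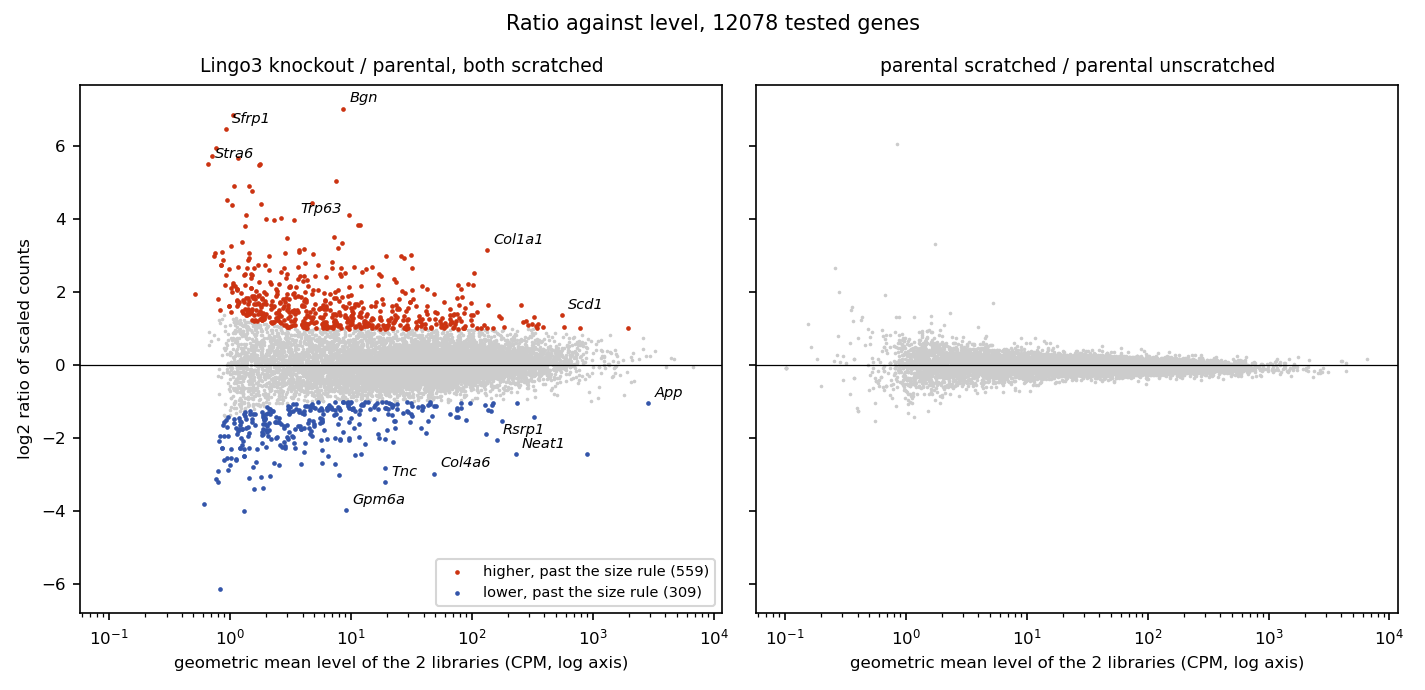
Each point is 1 of 12078 tested genes, with the geometric mean level of the 2 libraries in CPM on a log axis and the log2 ratio of scaled counts on the vertical axis, where a count of 0 is drawn at 3 counts. In the left plot the 559 higher (red) and 309 lower (blue) genes of the Lingo3 knockout spread over most of the range of levels, while in the parental pair on the right nearly all genes, apart from some of the lowest levels, stay close to 0.

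The 10 genes whose rise set the Lingo3 library apart from all 5 others most clearly stood below 2 CPM in both parental libraries. They were Apol8, Sfrp1, Cacng4, Bgn, Dapk1, Alpl, Ces1d, Dysf, Ltbp2 and Pdgfrb. The filter on low values, a mean of 1 CPM, included the Lingo3 library, and several of these genes met it only through that library. Among them were Apol8, Sfrp1, Cacng4 and Ces1d, at most 0.758 CPM in any other library. Alpl, Ltbp2 and Pdgfrb, at most 1.88 CPM in any other library, also met it only through the Lingo3 library. Sfrp1, a secreted antagonist of Wnt signalling (chromosome 8, 23411502 to 23449632), stood at 0.0349 and 0.0986 CPM in the unscratched and scratched parental libraries, at 0.758, 0.531 and 0.266 CPM in the libraries labelled Lingo1, Lingo2 and TROY and at 8.63 CPM in the Lingo3 mutant. With 3 parental counts its ratio was 87.5 (29.6 to 427), and against the library labelled Lingo1, the next highest library, it was 11.4-fold higher (7.29 to 18.7). Biglycan, Bgn, a small leucine-rich proteoglycan of the matrix, had 0.733 and 0.756 CPM in the parental libraries, 14.9, 12.6 and 5.29 CPM in the libraries labelled Lingo1, Lingo2 and TROY and 98.3 CPM in the Lingo3 mutant. The Bgn level was thus 6.58-fold (5.94 to 7.31) above that of the next library. Both genes followed one order, with the parental libraries lowest, the 3 other mutants between and Lingo3 highest.

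Dysferlin, Dysf, a protein of plasma membrane repair (chromosome 6, 84008590 to 84211060), had 0.349 CPM without and 1.31 CPM with the scratch in the parental line, 7.98, 4.99 and 2.29 CPM in the libraries labelled Lingo1, Lingo2 and TROY, and 43.0 CPM in the Lingo3 mutant. Ltbp2, an elastic fibre protein related to the latent TGF-beta binding proteins, stood at 0.0698, 0.658, 1.70, 1.2, 0.199 and 10.7 CPM in the same order, 16.2-fold higher than in the scratched parental library (10.3 to 26.9). The parental libraries also differed for these genes, and their folds depend on the control used: Dysf was 32.7-fold higher against the scratched and 123-fold (66.8 to 258) against the unscratched library. Tissue-nonspecific alkaline phosphatase, Alpl, an enzyme of bone mineralization (chromosome 4, 137741733 to 137796384), stood at 0.454 and 0.263 CPM in the parental libraries, 1.12, 1.73 and 0.698 CPM in the libraries labelled Lingo1, Lingo2 and TROY and 12 CPM in Lingo3. The death-associated kinase gene Dapk1 was at 1.40 and 1.71 CPM in the parental libraries, at 1.88, 1.70 and 0.565 CPM in the other mutants and at 14.1 CPM in the Lingo3 mutant. For Dapk1 the other mutants lay near or below the parental level, unlike for Bgn and Sfrp1.

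The others were the apolipoprotein L family gene Apol8, 51.3-fold higher (21.7 to 159), the carboxylesterase gene Ces1d, 17.3-fold (9.16 to 36.6), and the calcium channel subunit gene Cacng4 with 3 parental and 160 knockout counts. The platelet-derived growth factor receptor gene Pdgfrb had 1 parental count and 348 in the knockout, a ratio of 347 (61.9 to 13754), and 6.08-fold (4.53 to 8.30) above the library labelled Lingo1. Cdh4, R-cadherin, had 0 parental counts and 184 in the knockout, at least 61.2-fold higher, but did not pass against the library labelled Lingo1, at 3.07 against 6.04 CPM. Stra6, the cellular retinol uptake receptor, had 1 and 136 counts. Among the further genes with the largest folds were the myosin light chain kinase gene Mylk (21.8-fold, 15.2 to 32.3), the chemerin receptor gene Cmklr1 (29.8-fold, 14.9 to 69.8), the RNA sensor gene Tlr7 (27.1-fold, 14 to 59.9) and the Rac exchange factor gene Prex1 (14.2-fold, 11.5 to 17.7). These 4 also passed against every other library.

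Among the genes lowest in the Lingo3 library alone, tenascin C and a basement membrane collagen chain led. Tnc, an adhesion-modulating glycoprotein of wounds, stood at 70.8 and 58.0 CPM in the unscratched and scratched parental libraries, 41.1, 38.3 and 27.7 CPM in the libraries labelled Lingo1, Lingo2 and TROY and 6.30 CPM in the Lingo3 mutant. Col4a6, a collagen IV chain, was at 153 and 137 CPM in the parental libraries, 99.7, 77.6 and 118 CPM in the other mutants and 17.5 CPM in Lingo3, 4.44-fold (4.03 to 4.89) below the library labelled Lingo2, the next lowest. Its partner chain Col4a5 stood at 1350 CPM in the scratched parental and 687 CPM in the knockout library, 1.97-fold (1.93 to 2.0), just short of the rule. The proprotein convertase gene Pcsk5 (chromosome 19, 17432319 to 17837632) went from 50.5 to 7.22 CPM, 6.99-fold lower (6.07 to 8.09), with 19.8 to 28.3 CPM in the other mutants. The collagenase gene Mmp13 stood between 22.2 and 26.7 CPM in all 5 other libraries and at 9.38 CPM in Lingo3, 2.78-fold lower (2.43 to 3.20).

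Further genes below all 5 other libraries were those for the neural adhesion protein Opcml (14.9 to 3.71 CPM), the adenylate kinase Ak5 (16.4 to 4.63 CPM), the transmembrane semaphorin Sema6d (35.1 to 13.5 CPM), the polarity protein Crb2 (52.7 to 17.8 CPM) and Popdc3 (15.5 to 2.76 CPM). The ribosomal RNA gene n-R5-8s1, whose near-identical copies make its counts uncertain, went from 22.6 to 2.82 CPM. Another ribosomal RNA locus, CT010467.1 (chromosome 17, 39846353 to 39848827), stood at 2606 and 2097 CPM in the parental libraries, 806, 3163 and 1986 CPM in the libraries labelled Lingo1, Lingo2 and TROY and 389 CPM in Lingo3, so residual ribosomal RNA was lowest in the Lingo3 library and its part in other results was not tested.

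By contrast, the largest falls shared with the other mutants included Gpm6a, a neuronal membrane glycoprotein, with 36.8 and 36.0 CPM in the parental libraries and 2.30 to 4.45 CPM in the 4 mutants. Twist1, a mesenchymal transcription factor, likewise stood at 2.51 and 2.27 CPM in the parental libraries and 0.180, 0.212, 0.262 and 0.698 CPM in the libraries labelled Lingo1, Lingo2, Lingo3 and TROY. Neither Gpm6a nor Twist1 passed the rule between Lingo3 and any other mutant.

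**Figure D2:**
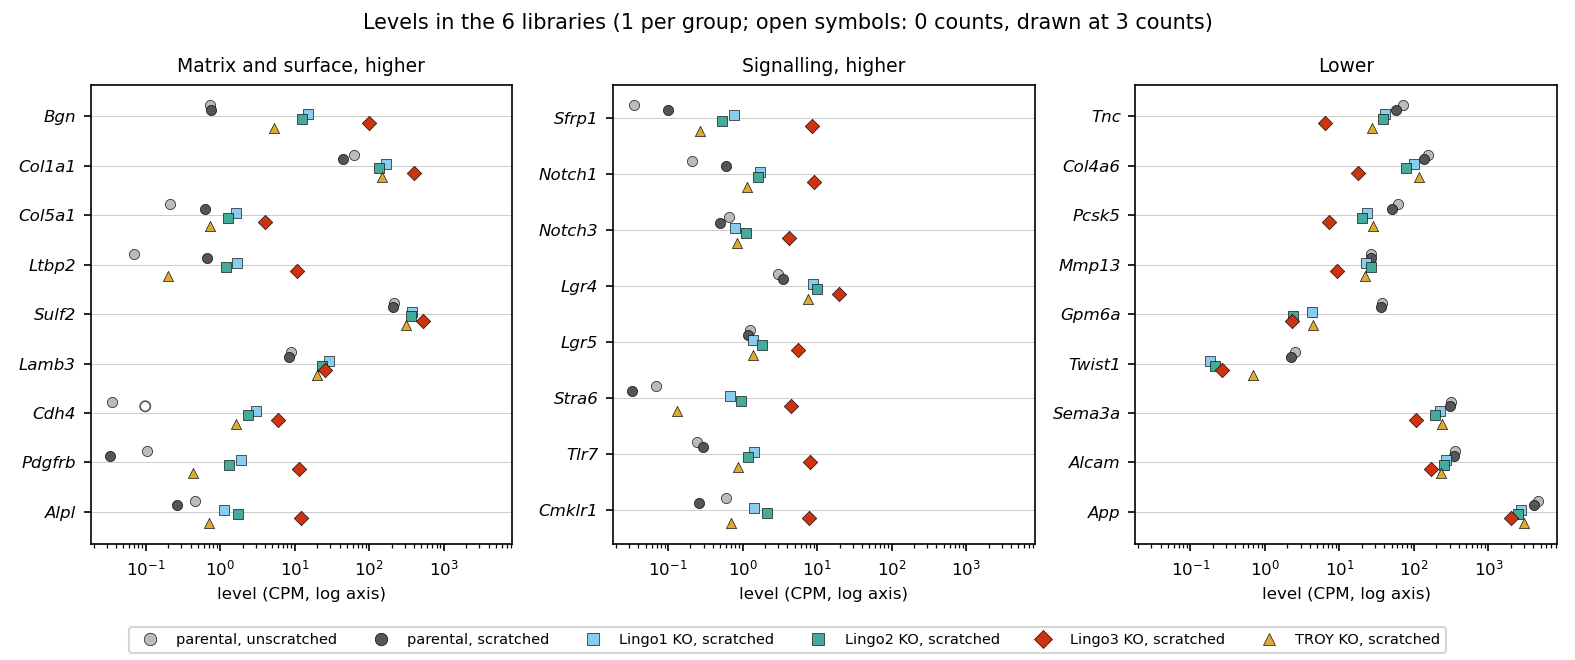
Levels in CPM on a log axis of 26 genes in the 6 libraries, 1 symbol per library, with an open symbol at 3 counts where a library had 0. The Lingo3 knockout (red diamonds) lies apart from all other libraries for genes such as Bgn, Sfrp1, Tnc and Col4a6, and among the other mutants for Lamb3, Gpm6a and Twist1.

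In terms of RNA amount, the 559 higher genes took 2.66% of the scaled counts in the Lingo3 library and 1.06% in the scratched parental one, and the 309 lower genes took 0.553% and 1.48%. Among protein-coding genes, median levels in the parental library were 3.32 CPM for the higher genes and 7.63 CPM for the lower ones, beside 36.1 CPM for all tested. In the Lingo3 library the order was reversed, with the median of the higher genes above that of the lower ones. Both medians lay below that of all tested genes there too. The parental level is part of the ratio that defines the calls, so these medians cannot rank the higher and lower sets by level. Differences in CPM were ranked among called genes only. Apart from the ribosomal RNA, the called transcripts with the largest differences included several of lipid synthesis and the cell surface. The largest rise in this ranking was that of the stearoyl-CoA desaturase gene Scd2. It stood at 1320 and 1372 CPM in the parental libraries and 2765 CPM in Lingo3. The libraries labelled Lingo1, Lingo2 and TROY had 2356, 2066 and 2608 CPM. The cell surface gene Heg1 followed, with 552 CPM in the scratched parental and 1118 CPM in the Lingo3 library. The amyloid precursor protein gene App (chromosome 16, 84949685 to 85173766) had the largest fall in this ranking, from 4140 to 2014 CPM, 2.06-fold (2.04 to 2.08). It had 4592 CPM in the unscratched library and 2481 to 2952 CPM in the other mutants. Scd2, Heg1, Pgd and Rad23b, all close to 2-fold, fell short of the rule when the libraries were scaled by total counts, and Heg1 and Evpl did so against the unscratched library.

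Structural genes of the matrix were found in both directions. Each list count in what follows stands against 4.63% higher and 2.56% lower of all tested genes, and a member that was low elsewhere could enter a list through the Lingo3 library. Of 27 tested matrix proteoglycan and glycoprotein genes 8 were higher and 2 lower, with a median log2 ratio of 0.36 beside 0.01 for all tested genes. Apart from Bgn, the higher ones included osteopontin, Spp1 (0.493 to 7.94 CPM, 16.1-fold, 9.57 to 29.2), the elastin gene Eln (0.526 to 4.0 CPM, 7.61-fold, 4.50 to 13.7) and the elastic fibre gene Emilin1 (1.58 to 11 CPM, 6.96-fold, 5.13 to 9.63). Eln stood between 0.499 and 0.578 CPM in every other library, so its rise was not shared by another mutant. It met the filter on low values through the Lingo3 library. Fibromodulin, Fmod, was 2.06-fold lower beside Tnc. With every gene that had at least 1 count admitted, the median of the list turned to -0.003.

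Of 27 tested genes of fibrillar and associated collagens and their maturation 4 were higher and 3 lower. Col1a1, the alpha 1 chain of type I collagen, stood at 62.3 and 44.8 CPM in the parental libraries, 170, 136 and 146 CPM in the libraries labelled Lingo1, Lingo2 and TROY and 398 CPM in Lingo3, 2.34-fold (2.26 to 2.42) above the library labelled Lingo1. Its partner chain Col1a2 had 2 parental and 3 knockout counts, and Col3a1 had 0 parental counts and 62 in the knockout, both below the filter on low values. Col5a1 went from 0.625 to 3.97 CPM, 6.35-fold higher (3.90 to 10.9), while Col11a1 was 2.69-fold, Col11a2 2.87-fold and Col20a1 3.99-fold lower. In the mineralization list 3 of 10 tested genes were higher, Alpl, Spp1 and the phosphatase gene Phospho1 (3.13-fold, 2.37 to 4.17). All 3 passed against every other library, but Alpl met the filter on low values through the Lingo3 library. The bone cell factors of that list, 4 genes, gave no call.

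Basement membrane and integrin genes showed 6 higher and 4 lower members of 33. The laminin chain gene Lamb3 was 3.09-fold higher (2.68 to 3.58), with 8.93 and 8.35 CPM in the parental libraries, 28.9, 23.0 and 20.1 CPM in the libraries labelled Lingo1, Lingo2 and TROY and 25.8 CPM in Lingo3, within the range of the other mutants. Col18a1, the source of endostatin, went from 25 to 95.3 CPM, 3.82-fold. The integrin subunit gene Itga9, a receptor chain for tenascin C, stood at 3.35 and 3.71 CPM in the parental libraries, 3.83, 3.36 and 1.66 CPM in the libraries labelled Lingo1, Lingo2 and TROY and 14.8 CPM in Lingo3. Lower were the integrin ligand nephronectin, Npnt (80.3 to 22 CPM, 3.65-fold, 3.35 to 3.98), the integrin chain Itgb8 (8.68 to 2.82 CPM, 3.08-fold) and Fras1 (186 to 87.9 CPM, 2.12-fold). Of 26 matrix protease genes 3 were higher, among them Mmp17 and Timp3, and 3 lower, Mmp13, Adam8 (6.60-fold, 3.57 to 13.3) and Adamts10 (3.41-fold, 3.01 to 3.87), with a median of -0.01.

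Among signalling pathways, 10 of 30 tested Wnt genes were higher and none was lower, beside 4.63% and 2.56% of all tested genes, and the median log2 ratio of the 30 was 0.45. Wnt ligands bind Frizzled receptors, the LGR receptors amplify the signal, and secreted Frizzled-related proteins bind the ligands. Of 6 tested ligands 3 were higher, Wnt7a (50.4 to 123 CPM, 2.45-fold), Wnt7b (2.44-fold) and Wnt10a (2.91-fold, 2.27 to 3.76). The receptors Lgr4, Lgr5 and Lgr6 were the 3 higher of 14, at 5.62-fold (4.56 to 6.98), 4.63-fold (3.21 to 6.83) and 2.59-fold (1.68 to 4.10). All 3 tested secreted Frizzled-related protein genes were higher, Sfrp1, Sfrp2 (1.35 to 12.3 CPM, 9.13-fold, 6.60 to 12.9) and Sfrp5 (3.36-fold, 1.99 to 5.94). Sfrp2 stood at 6.33 to 6.71 CPM in the other 3 mutants and Sfrp5 at 1.56 to 3.10 CPM, so Sfrp1 was the 1 of the 3 that passed against them. Sfrp1, at most 0.758 CPM elsewhere, met the filter on low values through the Lingo3 library. None of the 4 target genes of the list passed. In the libraries labelled Lingo1, Lingo2 and TROY, compared with the same parental library, 4, 4 and 2 genes of the list were higher.

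Notch receptors are cleaved on binding a ligand of a neighbouring cell and then act on transcription. Notch1 (chromosome 2, 26457903 to 26516663) stood at 0.209 and 0.592 CPM in the parental libraries, 1.70, 1.59 and 1.16 CPM in the libraries labelled Lingo1, Lingo2 and TROY and 9.22 CPM in Lingo3, and Notch3 at 0.663, 0.493, 0.794, 1.10, 0.831 and 4.17 CPM in the same order. Both receptors passed against all 5 libraries. Notch3, at most 1.10 CPM elsewhere, met the filter on low values through the Lingo3 library. The feedback gene Nrarp was 2.73-fold higher (1.74 to 4.42), but not against the unscratched library, and the ligand gene Jag1 (24.1 and 30.1 CPM) and the target gene Hes1 (45.6 and 71.6 CPM) did not pass. In all, 3 of 14 Notch pathway genes were higher and none was lower (median 0.30).

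Of 24 growth factor genes of the PDGF, VEGF, FGF and MET families 6 were higher and 1 lower, and 5 of the 6 were receptors. Besides Pdgfrb these were Pdgfra (1.71 to 6.69 CPM, 3.91-fold), the VEGF receptor gene Flt1 (7.86 to 35.9 CPM, 4.57-fold, 3.97 to 5.28), Tek (86.5 to 186 CPM) and Mst1r (2.71-fold, 1.91 to 3.90), with the ligand gene of the latter, Mst1, at 4.36-fold (3.15 to 6.14). Pdgfra, Pdgfrb and Flt1 passed against all 5 libraries, whereas Tek did not pass against the unscratched one. Pdgfrb met the filter on low values through the Lingo3 library. Fgf7, an epithelial growth factor, was 3.83-fold lower (2.37 to 6.43). In the EGF family, the ligands Tgfa (2.28-fold, 2.05 to 2.55) and Areg (2.27-fold, 1.58 to 3.31) were higher and the receptor Egfr was lower (13.5 to 4.95 CPM, 2.73-fold, 2.26 to 3.31), 3 calls among 10 tested genes. Among 10 IGF genes 3 binding proteins were higher, Igfbp2, Igfbp3 and Igfbp4. Of 36 TGF-beta and BMP pathway genes 4 were higher and none lower (median 0.13), among them Ltbp2, the activin subunit gene Inhba (2.77-fold, 2.55 to 3.01) and Id1. Id1 fell short of the rule with total counts, and none of the 10 receptors passed. Ltbp2 met the filter on low values through the Lingo3 library.

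Immediate early genes are transcribed within minutes of growth factor or stress signals, and the ERK pathway induces with them the phosphatases that end its own activity. Of 36 tested members 12 were higher and none was lower (median log2 ratio 0.68), and all 12 also passed against the unscratched library. By role, 5 of 8 AP-1 factors were higher (median 1.3), 3 of 11 zinc finger and nuclear receptor factors (0.69), 4 of 10 feedback phosphatases and inhibitors (0.29), and none of 4 secreted targets (0.56) or 3 ETS effectors (0.37). Against the same parental library, 9, 7 and 8 members were higher in the libraries labelled Lingo1, Lingo2 and TROY, with medians of 0.61, 0.55 and 0.56.

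The transcript of Fos stood at 42.4 and 48.0 CPM in the parental libraries, 208, 196 and 188 CPM in the libraries labelled Lingo1, Lingo2 and TROY and 218 CPM in the Lingo3 mutant, 4.55-fold higher than with the same scratch (4.30 to 4.82). Fosb went from 0.888 to 9.91 CPM, 11.2-fold (7.52 to 17.2), with 7.89 to 11.1 CPM in the other mutants. The zinc finger factor gene Egr2 went from 3.75 to 21.6 CPM, 5.75-fold (4.71 to 7.08), and Egr1 from 201 to 427 CPM, 2.13-fold (2.06 to 2.19). For all of these the 4 mutants lay together and away from both parental libraries. Of the 12 genes, 11 did not pass between Lingo3 and any other mutant. The exception was the phosphatase gene Dusp4, with 3.49 and 5.42 CPM in the parental libraries, 13.4, 11.1 and 16.6 CPM in the libraries labelled Lingo1, Lingo2 and TROY and 33.6 CPM in Lingo3, 2.03-fold (1.82 to 2.26) above the library labelled TROY. Other feedback genes gave higher calls for Dusp1 (43.8 to 113 CPM), Dusp5 (8.42 to 22.1 CPM) and Errfi1 (17.1 to 47.7 CPM), while the ERK antagonists Spry1, Spry2 and Spred1 lay below 1 without passing, at 1.79-fold, 1.44-fold and 1.5-fold lower levels. The feedback group thus held ratios on both sides of 1.

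Sequence elements that receive growth factor and cyclic AMP signals were searched for in RefSeq promoters, 250 bases before to 50 after each transcript start, on both strands. Of the 36 tested members 27 had a promoter in the table, on build GRCm38.p6, with 36 promoters in all because some genes have several start sites. The cyclic AMP response element, TGACGTCA, which reads alike on both strands, was in 3 of them (8.33%), those of Dusp1, Errfi1 and Maff, beside 1.79% of all 32851 promoters and 3.13% of those of tested genes. The serum response element, a CArG box, was in 5 (13.9%), 1 of Dusp5 and 4 of Egr2, where 3 overlapping promoters share 1 box and an upstream one holds another, beside 1.63% of all promoters and 1.26% of those of tested genes. Counted by gene, the CArG box was in 2 of 27 (7.41%), beside 1.53% of tested genes with a promoter. These stretches are shown because 4 of the 5 genes were higher in the Lingo3 library, with the element in capitals, 5′ to 3′ on the strand of the gene.
Dusp1 (chr17:26508583-26508640, minus strand): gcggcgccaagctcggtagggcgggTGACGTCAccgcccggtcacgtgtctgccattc
Errfi1 (chr4:150854994-150855051, plus strand): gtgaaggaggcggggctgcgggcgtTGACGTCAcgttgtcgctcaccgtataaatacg
Maff (chr15:79347466-79347523, plus strand): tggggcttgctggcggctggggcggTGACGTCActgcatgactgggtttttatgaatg
Dusp5 (chr19:53529038-53529107, plus strand): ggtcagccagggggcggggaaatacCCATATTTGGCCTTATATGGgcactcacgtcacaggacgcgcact
Egr2 (chr10:67537772-67537831, plus strand): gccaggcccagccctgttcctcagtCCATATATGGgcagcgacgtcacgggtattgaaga
Egr2, upstream start site (chr10:67537469-67537528, plus strand): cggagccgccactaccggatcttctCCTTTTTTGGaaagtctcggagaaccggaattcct
Dusp5 carried 2 adjoining CArG boxes and each Egr2 stretch 1. Maff holds the same cyclic AMP element as Dusp1 and Errfi1 and had a log2 ratio of -0.04, with 32.8 CPM in the parental and 31.8 CPM in the knockout library. A match describes the letters and not a bound site. Over all higher genes the cyclic AMP element was in 1.28% of promoters and over all lower genes in 2.09%, both below the 3.13% of tested genes. The AP-1 site TGANTCA was in 9.34% of the promoters of higher genes, 6.70% of those of lower genes, 4.94% of those of tested genes and 7.81% of all promoters.

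**Figure D3:**
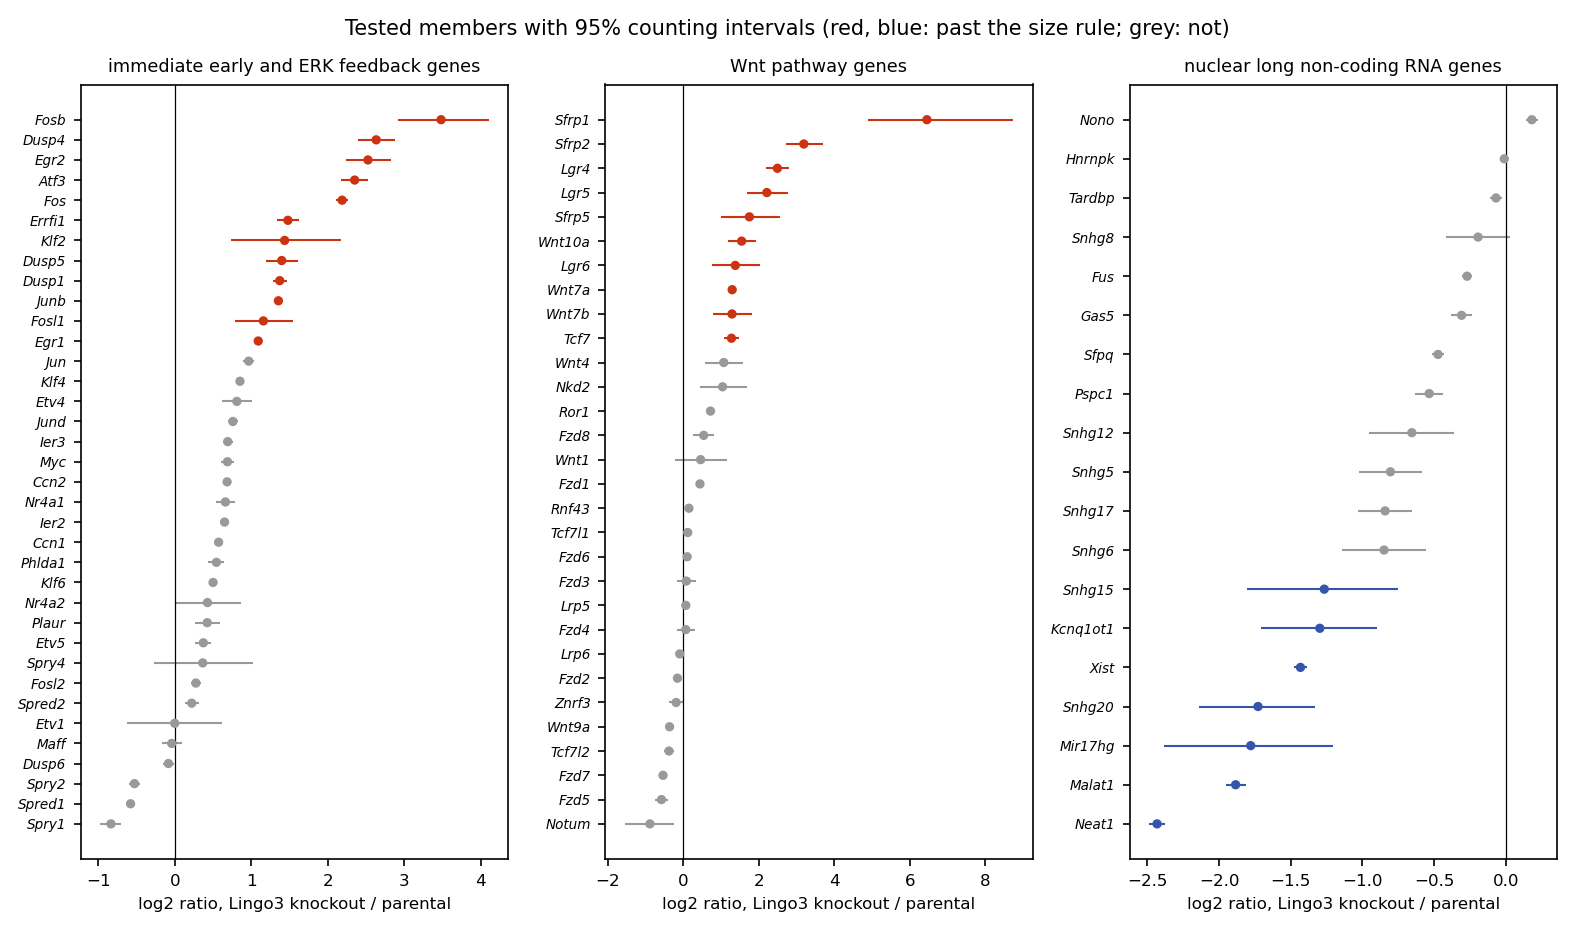
Log2 ratios, Lingo3 knockout over parental, of the tested members of 3 gene lists with their 95% counting intervals, coloured where the size rule was passed (red higher, blue lower). Immediate early genes reach from Fosb at 11.2-fold higher to Spry1 below 0, Sfrp1 leads the 30 Wnt genes, and Neat1 and Malat1 lie lowest among nuclear RNAs.

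Genes of sterol synthesis and uptake stood above the parental level as a group, mostly by less than 2-fold. All 26 tested members had ratios above 1, with a median log2 ratio of 0.82, and 3 passed. Hmgcs1, an early enzyme of the pathway, stood at 151 and 185 CPM in the parental libraries, 327, 319 and 345 CPM in the libraries labelled Lingo1, Lingo2 and TROY and 428 CPM in Lingo3, 2.32-fold higher (2.25 to 2.39). Mvd was 2.01-fold higher (1.88 to 2.16) and fell short of the rule with total counts. The parental pair had a median of 0.14 for this list. The other mutants, set against the same parental library, had medians of 0.60 for Lingo1, 0.46 for Lingo2 and 0.53 for TROY, with no gene past the rule. The sterol regulatory element searched was in none of the 25 promoters of 19 members in the table. It was rare, in 0.234% of all promoters and 0.167% of those of tested genes. With so rare an element, 25 promoters are too few for its absence to be read. Over all higher genes it was in 5 of 546 promoters (0.916%) and over all lower genes in 2 of 239 (0.837%).

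Fatty acid synthesis genes had 5 of 15 tested members higher, none lower and all 15 above 1 (median 0.62). Acss2, which makes acetyl-CoA from acetate, went from 7.17 to 40.5 CPM, 5.66-fold higher (4.89 to 6.56), with 16.8 to 21.9 CPM in the other mutants. The elongase gene Elovl6 was 2.62-fold higher (2.46 to 2.78), Acacb 2.92-fold (2.01 to 4.31) and the desaturase gene Scd1 2.57-fold (2.52 to 2.63). Fatty acid synthase, Fasn, at 617 and 1084 CPM, stood at 1.76-fold (1.73 to 1.79) and did not pass.

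Differentiation markers were checked against the label of a lung epithelial line. Nkx2-1, the lung lineage factor, was at 160 CPM in the parental and 205 CPM in the Lingo3 library, E-cadherin, Cdh1, at 602 and 918 CPM, and the alveolar type I gene Ager at 343 and 438 CPM. Mesothelial genes were also present, with Upk3b at 1873 and 1542 CPM and Msln at 287 and 362 CPM, as was Vim at 880 and 1304 CPM. Of 16 alveolar type II markers 10 were tested, and 5 were higher and 1 lower, with a median log2 ratio of 1.06. The surfactant protein genes Sftpc (16.5 and 18.3 CPM in the parental libraries, 40.7, 42.0 and 19.8 CPM in the libraries labelled Lingo1, Lingo2 and TROY, 81.9 CPM in Lingo3) and Sftpb (35.6 to 164 CPM) were higher. For Sftpc the library labelled TROY lay at the parental level and the Lingo3 mutant above all others, while for Sftpb the library labelled Lingo1 matched Lingo3 at 164 CPM. Napsa, which processes surfactant protein B, was 3.46-fold higher (2.65 to 4.59) and passed against all 5 libraries. Other defining markers stayed near 0, with Sftpa1 at 0 and 1, Sftpd at 0 and 0 and Lamp3 at 3 and 1 counts.

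Basal, stratified and secretory airway markers were mostly too low to test. A marker near the filter entered through the libraries in which it was high, so the medians describe the tested members only. Of 27 basal and keratin markers 9 were tested and 5 were higher, with a median of 1.41 beside 0.06 for the parental pair. The libraries labelled Lingo1, Lingo2 and TROY, over the same parental library, each had 5 higher too, with medians of 1.18, 1.55 and 1.09. The basal cell factor gene Trp63 (chromosome 16, 25683763 to 25892102) stood at 1.12 and 0.855 CPM in the parental libraries, 4.01, 3.47 and 2.83 CPM in the libraries labelled Lingo1, Lingo2 and TROY and 13.5 CPM in Lingo3, 3.36-fold (2.72 to 4.19) above the library labelled Lingo1. Krt14 went from 43.4 to 203 CPM and the cornified envelope gene Sprr1a from 10.8 to 51.6 CPM, while the basal keratin Krt5 had 0 counts in both libraries. Sprr2a3, one of a cluster of near-identical genes, was 14.4-fold higher (11.7 to 17.9). Of 11 tested secretory, ciliated and neuroendocrine markers 6 were higher, among them the mucin genes Muc5b (40.3 to 142 CPM) and Muc5ac (3.82-fold, 2.80 to 5.29) and Gkn2 (8.62-fold, 6.18 to 12.3), with Scgb1a1 and Scgb3a2 at 0 counts. The ciliary dynein gene Dnah11 was 6.49-fold lower (5.18 to 8.20) while the ciliated cell gene Tppp3 was 5.04-fold higher, so the ciliated members held calls in both directions. Of the 11 tested members of the list, 9 had ratios above 1, with a median log2 ratio of 1.12.

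Markers of other cell types were measured for cells that a culture could hold. Of 28 fibroblast, pericyte and smooth muscle markers 8 were tested, with a median log2 ratio of 1.71. The 5 higher ones were Col1a1, Pdgfra, Pdgfrb, Notch3 and Pi16. Pdgfrb and Notch3 met the filter on low values through the Lingo3 library. The summed level of the 8 tested markers was 2859 CPM in the parental and 3713 CPM in the Lingo3 library. Most of it was decorin, Dcn, at 2532 and 2997 CPM. Defining members were at or near 0, with Tcf21, Dpt and Mfap4 at 0 counts, Lum at 1 and 1, and Acta2 at 7 and 6. Leukocyte markers summed to 61.3 and 80.1 CPM, Ptprc had 0 and 2 counts, and 10 of 28 had 0 counts in both libraries. Endothelial markers were uneven in the control, since Cdh5 and Tie1 had 20 and 52 counts in the scratched parental library, at most 1 in any other, and Vwf 5.56 CPM beside 0.558 without the scratch. Vwf was 4.58-fold lower in the Lingo3 library against the scratched but at 1.21 CPM above the unscratched one, so its direction turned with the control. It was 1 of 2 tested genes, both among the 309 lower, in which the scratched parental library stood alone. In bulk RNA, fewer cells of a type and less RNA per cell cannot be told apart.

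Complement and acute phase genes had 7 of 14 tested members higher and 1 lower, with a median log2 ratio of 1.0. C3, the central complement component, stood at 2.69 and 2.66 CPM in the parental libraries, 9.28, 11.1 and 7.58 CPM in the libraries labelled Lingo1, Lingo2 and TROY and 26.9 CPM in Lingo3, 10.1-fold higher (8.02 to 12.8). The inhibitor gene Serping1 (4.86-fold, 3.12 to 7.89) and the lectin pathway protease gene Masp1 (3.37-fold, 2.77 to 4.12) passed against all 5 libraries, as did C3. The acute phase genes Orm1 (13.3 to 41.5 CPM) and Orm3 (2.60 to 24.0 CPM) were higher too, and the other mutants reached 30.1 to 49.8 CPM and 11 to 24.3 CPM. The Orm genes are close copies, so their reads may be split between them. Properdin, Cfp, was 4.33-fold lower (3.07 to 6.24). Of 50 interferon and antigen presentation genes 5 were higher and 1 lower (median 0.32), led by Cd74 (6.10-fold, 4.01 to 9.63), Oas3 (5.58-fold, 3.31 to 9.97) and Usp18 (3.28-fold, 2.36 to 4.64). Of 31 cytokine and chemokine genes 5 were higher, among them the chemokine receptor gene Cxcr4 (1.97 to 5.48 CPM, at most 2.62 CPM in the other libraries) and Ccl2 (2.81-fold, 1.79 to 4.53), and the lung chemokine gene Cxcl15 was lower (3.73-fold, 2.19 to 6.67).

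Genes of the LINGO setting were few. Of 13 family and Nogo receptor partner genes 4 were tested, and the receptor homologue Rtn4rl2 was higher with Lingo1, at 1.75 and 1.2 CPM in the parental libraries, 1.77, 2.16 and 1.40 CPM in the libraries labelled Lingo1, Lingo2 and TROY and 4.79 CPM in Lingo3. Of 46 axon guidance genes 4 were higher and 3 lower, with a median of 0.08. The secreted semaphorin Sema3a, a repellent of growth cones, went from 302 to 105 CPM, 2.86-fold lower (2.75 to 2.98), with 194 to 239 CPM in the other mutants, while Sema3b was 2.35-fold higher. Ephrin genes split too, with Efna3 (3.61-fold, 2.67 to 4.96) and Efnb1 (2.38-fold, 2.16 to 2.63) higher and Efnb3 lower (3.85-fold, 2.06 to 7.74). Of 37 junction genes 9 were higher and 2 lower (median 0.20). The desmosomal Pkp1 (3.27-fold, 2.64 to 4.07), Cdh13 (14.4 to 42.4 CPM) and the adhesion gene Epcam (2.16-fold, 1.73 to 2.71) were higher, and the neuronal catenin Ctnna2 was lower (39.9 to 13.7 CPM, 2.91-fold). Of 23 TNF superfamily genes 5 were higher and 2 lower, the death receptor gene Tnfrsf25 among the latter (14.9 to 2.30 CPM). Its relative Tnfrsf8, CD30, was the 1 of the 5 that passed against all other libraries, at 0.658 CPM in the parental library, 1.03 to 1.42 CPM in the other mutants and 3.61 CPM in Lingo3. The calls for Tnfsf9 and Tnfrsf21, both close to 2-fold, rested on the scratched library.

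Transport, retinoid and differentiation lists followed. Of 25 ion channel and transporter genes 5 were higher and none was lower (median 0.26), beside 4.63% and 2.56% of all tested genes. Atp6v0a4, a subunit of the proton pump, stood at 11.7 and 10.1 CPM in the parental libraries, 43.0, 43.2 and 44.6 CPM in the libraries labelled Lingo1, Lingo2 and TROY and 76.9 CPM in Lingo3, whereas the other 6 tested pump subunits did not pass. The water channel gene Aqp1 was at 51.5 to 79.4 CPM in the other libraries and at 153 CPM in Lingo3. Of 14 retinoid genes 1 was higher and 2 were lower, with a median of -0.01. The higher one, Stra6, at most 0.955 CPM elsewhere, met the filter on low values through the Lingo3 library. The retinol dehydrogenase gene Rdh10 (34.3 to 8.56 CPM, 4.01-fold, 3.50 to 4.61) was lower. The 2 lower genes did not pass between Lingo3 and any other mutant. In the libraries labelled Lingo1, Lingo2 and TROY, over the same parental library, 1, 1 and 0 members were higher and 2, 2 and 3 lower.

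Of 23 lung and foregut transcription factor genes 4 were higher and none was lower. Gata5 had 0.244 and 0.263 CPM in the parental libraries, 5.63, 6.93 and 5.05 CPM in the libraries labelled Lingo1, Lingo2 and TROY and 11.8 CPM in Lingo3, and the epithelial factor gene Elf3 went from 0.625 to 3.54 CPM, 5.67-fold (3.46 to 9.78). Elf3 passed against every other library and Gata5 did not pass against Lingo2. In the S100, annexin and CD44 list Anxa8 (146 to 456 CPM), S100a4, S100a14 and Cd44 (53.4 to 124 CPM) were higher and the hyaluronan synthase gene Has3 was lower, of 24 tested. Among 11 tested neuronal markers 5 were higher, led by the microtubule protein gene Map1b, with 1.43 and 3.85 CPM in the parental libraries, 2.66 to 3.61 CPM in the other mutants and 16.1 CPM in Lingo3. The neuronal tubulin gene Tubb3 was 3.06-fold higher (2.72 to 3.44), and Gpm6a was the 1 lower member.

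Calls in the metabolic and stress lists are set against 7.19% of all tested genes in either direction. Of 34 amino acid supply and ATF4 target genes 4 were higher, among them the transporter gene Slc6a9 (2.80-fold, 2.49 to 3.14) and Trib3 (2.30-fold, 1.99 to 2.67), and the cationic amino acid transporter gene Slc7a3 was lower (6.08 to 0.590 CPM, 10.3-fold, 6.34 to 17.8). Antioxidant targets of NRF2 had 3 of 23 members higher, Gstp1, Gsta4 and Pgd, with a median of 0.40. Of 27 YAP and TAZ targets 3 were higher, Nt5e, Arhgef17 and Foxf2, with a median of 0.14. The mast cell protease gene Mcpt2 was the only called member of 6 tested leukocyte markers, at 6.88 and 9.96 CPM in the parental libraries, 20.6, 20.3 and 12.1 CPM in the libraries labelled Lingo1, Lingo2 and TROY and 3.38 CPM in Lingo3, 2.95-fold lower (2.35 to 3.72). Its close copy Mcpt1, with which reads may be shared, stood at 33.8 CPM in the parental and 59.5 CPM in the Lingo3 library and did not pass.

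Replication, mitosis and oxidative phosphorylation genes gave no call. None of 32 S phase genes passed, with a median log2 ratio of -0.14, and none of 30 mitotic genes, with 0.16. Nor did any of 41 nuclear oxidative phosphorylation genes (0.02), 13 heat shock genes (0.15) or 21 chaperone genes of the endoplasmic reticulum (0.22). The cell cycle inhibitor gene Cdkn1a was 4.43-fold higher (3.68 to 5.36), at 15.2 to 19.7 CPM in the other mutants, and Cdkn1c went from 1.2 to 11.1 CPM, 8.88-fold (6.33 to 12.8), with at most 2.65 CPM elsewhere. They were the 2 calls among 30 genes of p53 targets and inhibitors, a share near the 7.19% of all tested genes. Of 30 glycolysis and hypoxia genes Hk1 and Egln3 were higher and Kdm3a was lower, with a median of 0.43.

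**Figure D4:**
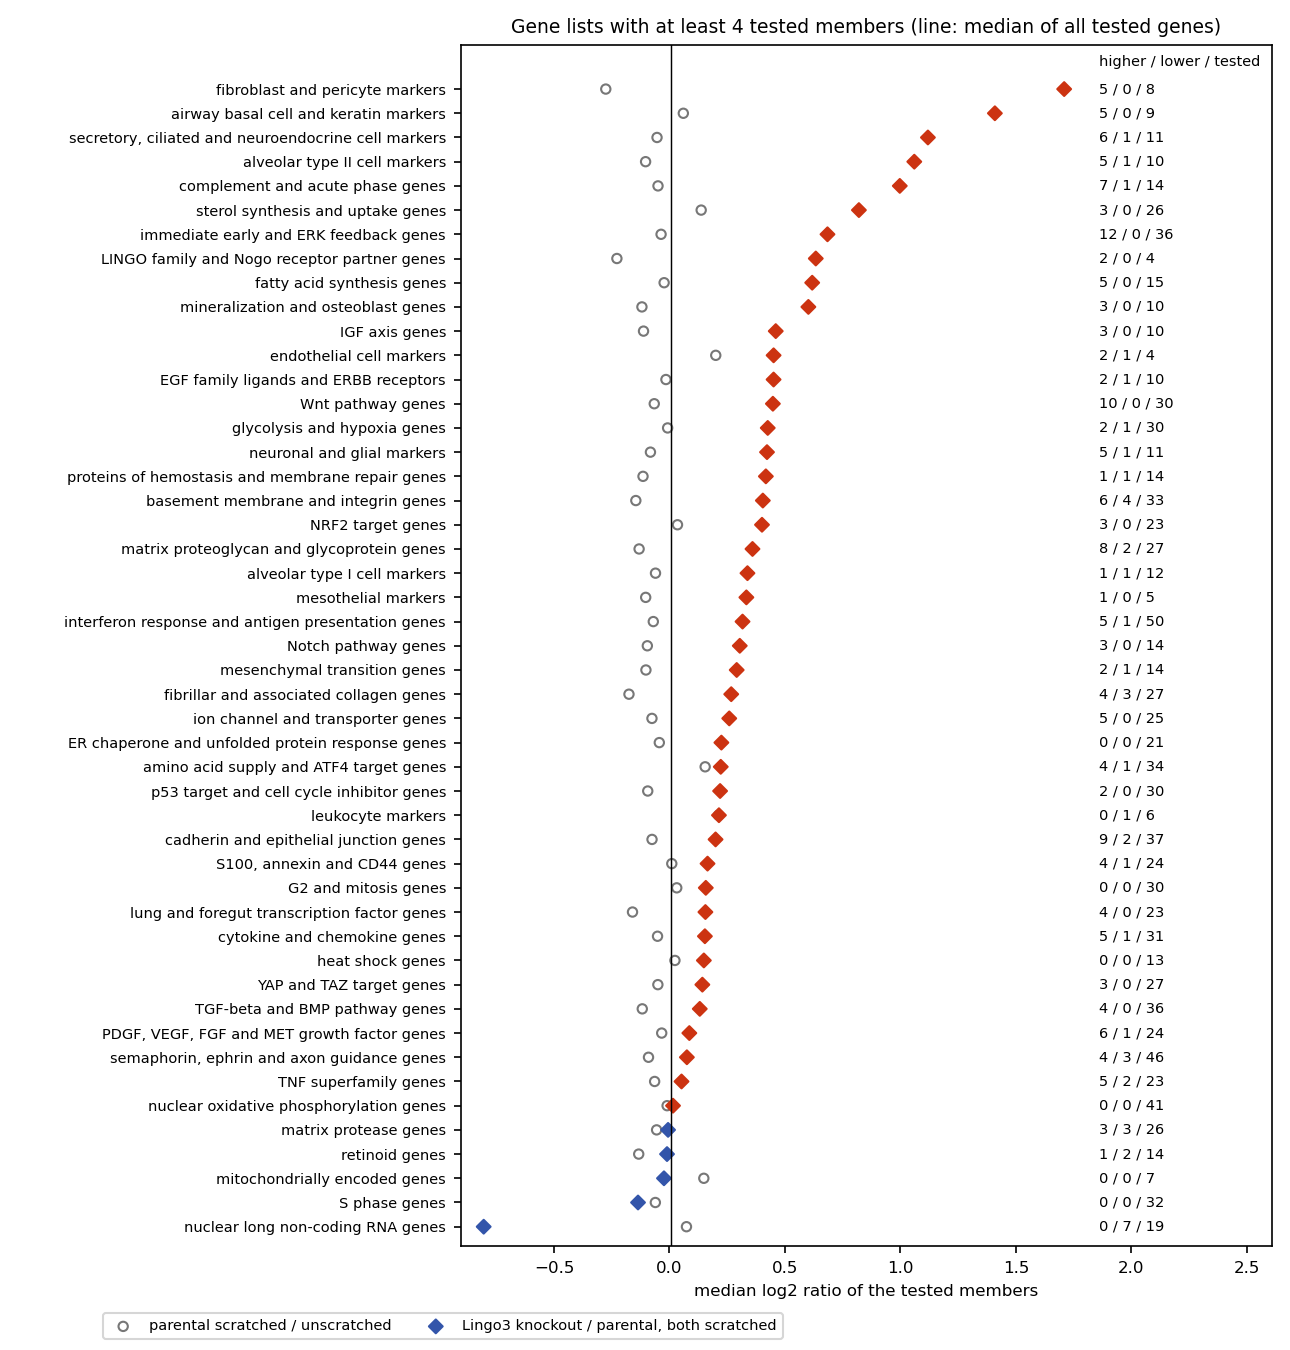
Median log2 ratio of the tested members of each gene list, Lingo3 knockout over scratched parental (diamonds, red above and blue below the median of all tested genes) and scratched over unscratched parental (open circles), with the numbers higher, lower and tested at the right. The fibroblast and pericyte list stands at 1.71, but only 8 of its 28 members were tested and some met the filter through the Lingo3 library, and the nuclear long non-coding RNA list lies lowest at -0.80.

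Non-coding transcripts made up a large share of what was lower. Of 383 tested long non-coding and unclassified transcripts 78 were lower (20.4%) and 13 higher, beside 212 lower (1.85%) and 545 higher of 11451 protein-coding genes. Their median log2 ratio was -0.31, beside 0.05 between the parental libraries. Genes that do not code for protein were 31.4% of the lower and 2.5% of the higher set. All 5 tested nuclear RNAs of the paraspeckle and chromatin group were lower. Neat1, the RNA scaffold of paraspeckles, stood at 480 and 537 CPM in the parental libraries, 120, 158 and 129 CPM in the libraries labelled Lingo1, Lingo2 and TROY and 99.5 CPM in Lingo3, 5.40-fold lower (5.19 to 5.61). Malat1, an RNA of nuclear speckles, was at 210 and 254 CPM, 84.5, 116 and 118 CPM, and 68.9 CPM in the same order. The X inactivation RNA Xist went from 537 to 199 CPM, and Kcnq1ot1, which did not pass against the unscratched library, was 2.46-fold lower (1.86 to 3.27). None of the 7 lower genes of the list passed between Lingo3 and another mutant. The proteins of paraspeckles, 6 genes, gave no call (median -0.17).

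Genes of pre-mRNA splicing regulation and genes with zinc finger symbols leaned the same way, 2 sets chosen after their values were seen. Of 23 splicing regulators (SR proteins, CLK kinases, LUC7-like and cyclin L genes and their like) 22 lay below 1 and 4 were lower, with a median of -0.58. Rsrp1, an arginine and serine rich protein gene, stood at 343 and 330 CPM in the parental libraries, 103, 124 and 114 CPM in the libraries labelled Lingo1, Lingo2 and TROY and 78.9 CPM in Lingo3, 4.18-fold lower (4.0 to 4.37), with Ccnl2 (152 to 53.3 CPM), Luc7l3 (222 to 92.6 CPM) and Pnisr (115 to 49.2 CPM). Of 337 protein-coding genes with symbols starting with Zfp, Zkscan, Zscan, Znf or Zik1, 279 lay below 1, with a median of -0.32. Of these 337 genes 13 were lower and 5 higher, beside 2.56% and 4.63% of all tested genes. Zinc finger genes with other symbols, such as Egr1 and Egr2, which were higher, lie outside this set. The median of the zinc finger set was 0.02 between the parental libraries and -0.26, -0.27 and -0.18 for the libraries labelled Lingo1, Lingo2 and TROY over the same parental library. The share of reads in no gene, 8.02% in the scratched parental and 4.98% in the Lingo3 library, moved with these transcripts. Its part in these results was not tested.

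**Figure D5:**
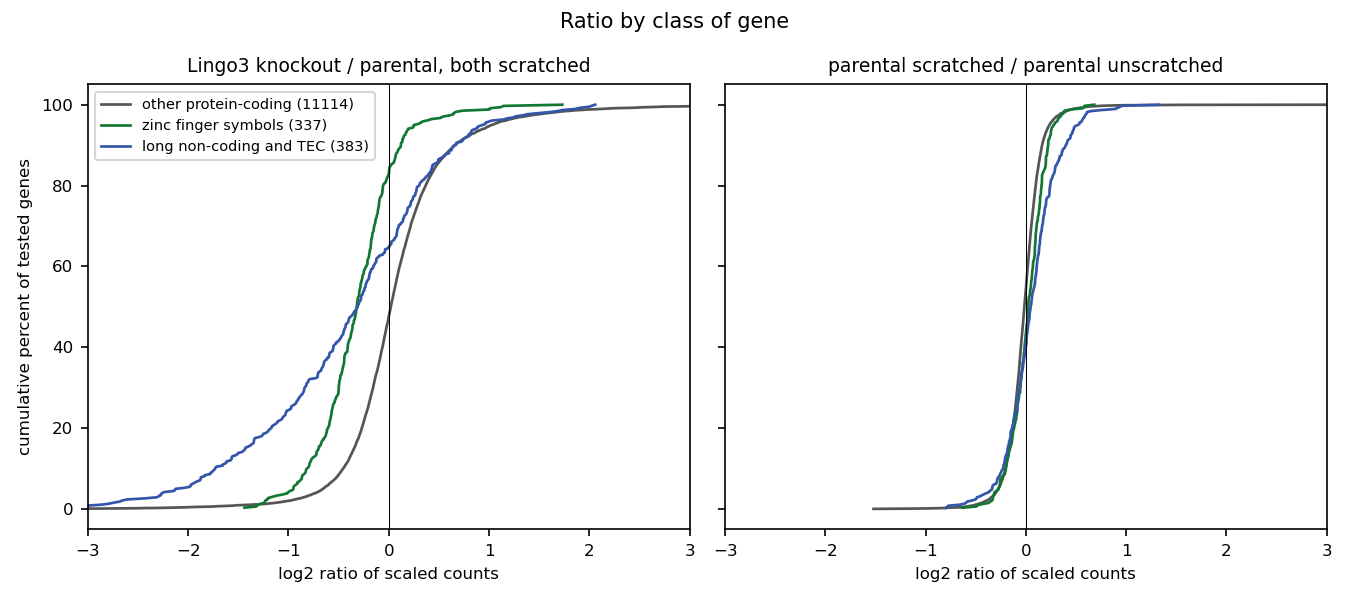
Cumulative percent of tested genes by log2 ratio for other protein-coding genes, genes with zinc finger symbols and long non-coding or unclassified transcripts. In the Lingo3 comparison (left) the zinc finger and non-coding curves lie to the left of the protein-coding one, with medians of -0.32 and -0.31, and in the parental pair (right) all 3 lie near 0.

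By chromosome, chromosome 4 stood out with a median log2 ratio of 0.20 over 776 tested genes, where the other autosomes and X lay between -0.10 and 0.08. On chromosome 4, 52 genes were higher (6.70%) and 18 lower (2.32%). Runs of 50 neighbouring genes gave the largest medians near the end of chromosome 2, up to 0.47 (153341157 to 156873563), where the parental pair had -0.07. The lowest run, on chromosome 13 (64359337 to 73960895), had a median of -0.41, beside 0.04 for the parental pair. Over the 192 tested genes between 150114406 and 174473081 of chromosome 2, an interval chosen after its values were seen, 147 had a ratio above 1 and the median log2 ratio was 0.36. In that interval the Lingo3 library also lay above the Lingo1, Lingo2 and TROY libraries, with medians of 0.16, 0.18 and 0.19, and these libraries lay above the parental one by 0.19, 0.18 and 0.16. The 91 tested genes between 58125879 and 74808810 of chromosome 13, also chosen after their values were seen, had a median of -0.23. There the Lingo1, Lingo2 and TROY libraries lay below the parental one too, with medians of -0.20, -0.14 and -0.10. The Lingo3 library set against these 3 had medians of -0.01, -0.13 and -0.13. DNA copy number was not measured.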

How the data were processed

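Messenger RNA libraries from 6 MLE12 cultures were analysed, 1 per group. The authors deposited raw read counts per Ensembl gene, and per the submitters' processing notes Trimmomatic 0.39, STAR, HTSeq and edgeR were used with build GRCm38, without settings. Strandedness is not given in the sources used here, so overlapping and antisense genes cannot be told apart. A second deposited table holds RPKM values and the authors' log2 ratios, which served as a check: in the authors' deposited table all 833 called genes matched by symbol had the same sign, and for 11819 tested genes the median absolute log2 difference was 0.0102. Of 46078 identifiers 45229 were matched to GENCODE M21.

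Counts were scaled with TMM factors (edgeR 4.0.16, R 4.3.3) over all 6 libraries, and the genes tested had 1 CPM or more on average. Folds are ratios of scaled counts with exact Clopper-Pearson 95% intervals, which cover counting error only. Where a library had 0 counts a floor of 3 counts was used and the fold is written as at least that value, and 1 to 3 counts give a ratio with its interval, never a bound. No test was possible with 1 library a group, and the rule was tested on simulated data that held counting error alone. The simulation therefore cannot show how the rule behaves with differences between cultures. The 48 gene lists (1474 genes, 1468 in the table) are described by counts and medians. The members and lists were chosen with earlier results of these data known. Named genes are the targeted genes, the 20 per direction with the largest bound, the 10 with the largest CPM difference, the 10 apart from all 5 other libraries and, per list, as many as 6 called members. Further list members were named after their values were seen. Rankings skip pseudogenes and symbols that are clone names or carry Gm or Rik. Promoter sequences come from RefSeq. The alternatives tried were other scalings, filters, size rules and control libraries, and protein-coding genes only. Results for some genes are not reported here.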

Additional observations from a re-analysis of the deposited data

How the results depend on the processing

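With 1 library a group no difference here has a replicate check, and the filter at a mean of 1 CPM, not depth alone, limits which genes could be called. No paired analysis was possible because each group has 1 library. The counts of 559 higher and 309 lower genes stayed within 1.5 times with total counts (486 and 370), DESeq2 size factors (555 and 309), the unscratched library as control (521 and 306), both parental libraries required (440 and 253) and protein-coding genes only (545 and 212). They became 309 and 152 at a mean of 5 CPM, 1249 and 847 with a looser rule (fold 1.5), 229 and 135 with a stricter one (fold 3), and 836 and 651 without a filter. An alternative chosen after seeing the data left out the 99 genes in which the scratched parental library stands alone, 70 of them pseudogenes. Only 2 of the 99 were tested and both were among the lower genes, so its result, 559 and 307, was fixed in advance. In the other pairs, alternatives added after seeing the data gave, without a filter, at 5 CPM, at fold 1.5 and at fold 3, counts of 361, 91, 505 and 66 against the library labelled Lingo1, 359, 82, 544 and 62 against Lingo2, 551, 143, 814 and 103 against TROY, and 160, 2, 39 and 4 between the parental libraries.

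Of 48 list medians, 22 moved by more than 0.1 without a reversal against the unscratched library, 18 at 5 CPM and 11 without a filter. The median log2 ratio changed sign in 5 lists: without a filter to -0.00319 for matrix proteoglycans and glycoproteins, to -0.00319 for cytokines and chemokines and to -1.59 for endothelial markers, at 5 CPM to -0.28 for leukocyte markers, and against the unscratched library to -0.0266 for lung transcription factors. The log2 ratio of Vwf was 1.12 against the unscratched library. Of 203 genes named by rule, 11 fell short of the size rule with total counts and 22, with Vwf besides, against the unscratched library, and none with DESeq2 size factors. The cause was not tested.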
